A study of Rattus norvegicus with 4 samples.

Results

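The response to A83-01 on soft matrix was taken as the comparison of 2 RNA-seq libraries of primary rat microvessels, soft matrix with A83-01 against soft matrix without it, over all genes with at least 1 CPM (count per 1000000 counts of the library, after scaling) in either of them. These were 13236 of the 23608 gene entries of the series. At that limit Arl4d was the last gene with a symbol to enter, at 0.807 and 1.01 CPM without and with A83-01, and Cdhr5 the first left out, at 0.986 and 0.448 CPM. The cells were wild type primary vascular cells from subcutaneous soft connective tissue, cultured as microvessels on an extracellular matrix described as soft or as stiff, each without or with A83-01, 1 library for each of the 4 groups. The study set out to learn what stiffness and this inhibitor do to microvessels and to the turning of pericytes into myofibroblasts. The labels give no stiffness value, no dose, no duration and no rat strain or age, and leave unsaid whether any of the 4 shares an animal or a culture with another.

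A83-01 is a small molecule that blocks the kinase of the type I receptors for TGF-beta, activin and Nodal (ALK5, ALK4 and ALK7), and leaves the type I receptors for bone morphogenetic proteins (BMPs) largely free. TGF-beta binds a pair of type II and type I receptors, the latter phosphorylates SMAD2 and SMAD3, and these carry the signal to genes for collagen, for collagen crosslinking enzymes, for smooth muscle contractile proteins and for feedback inhibitors of the pathway itself. In connective tissue this drives fibroblasts and pericytes, the mural cells that wrap capillaries, towards myofibroblasts. BMPs signal through SMAD1, SMAD5 and SMAD9 to ID genes.

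The soft libraries held 32475473 counts without and 32271844 with A83-01, so that 3 counts, the floor used below, were 0.0896 and 0.0895 CPM. Transcripts of 13 mitochondrial genes took 4.72% of counts without and 6.35% with A83-01, and the part of this difference in the results was not tested. Col1a1, the gene of the main collagen I chain, alone took 4.05% and 1.82%. With 1 library on each side no difference has a replicate check, and the 2 libraries are compared, not the conditions. CPM were scaled by edgeR's TMM factors (trimmed mean of M-values), and each fold is their ratio after a prior count of 2 was added, which draws genes with few counts towards 1. The range after a fold is the 95% interval of the ratio of scaled counts without the prior count. A bound below 1 lies on the other side of equality. The interval covers counting error only, and PCR copies may make even that too narrow. In bulk RNA, fewer cells of a type and less RNA per cell cannot be told apart. No strand-marking step is described, so overlapping genes on opposite strands may share reads.

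Most genes lay close together in both libraries. The quartiles of the log2 ratio over the 13236 genes were -0.17 and 0.17, the median was -0.00142, and 88.2% lay within 1.5-fold. With A83-01, 277 genes were at least 2-fold higher with an interval above 1, which is 2.09% of those compared, and 308 were at least 2-fold lower with an interval below 1, which is 2.33%. At 4-fold, 48 were higher and 55 lower. The inhibitor could be tested only over both matrices, 2 libraries with against 2 without, in edgeR's quasi-likelihood test with the matrix as a term, 1 degree of freedom left for the spread, and p-values adjusted by Benjamini-Hochberg over 13634 genes. That test called 0 genes higher and 6 lower, or 0.044%, at an adjusted p of at most 0.05, and 988 higher (7.25%) and 823 lower (6.04%) at an unadjusted p of at most 0.05. On the same libraries DESeq2's Wald test called 219 higher and 244 lower (1.61% and 1.79%) and limma-voom 0 and 3. In the quasi-likelihood test a response that differs between soft and stiff counts as spread.

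**Figure D1:**
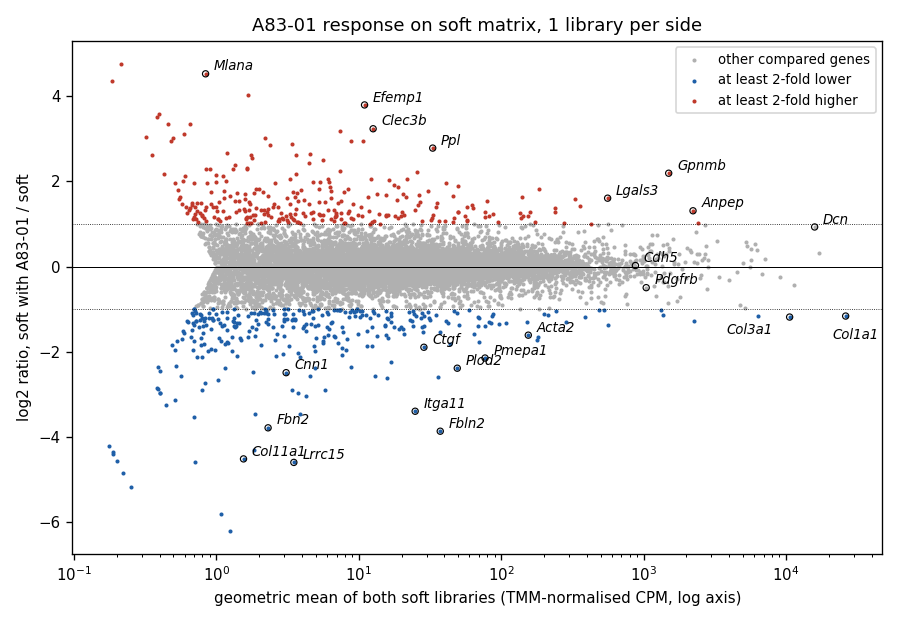
Each point is 1 of the compared genes, with its geometric mean level in both soft libraries (TMM-normalised CPM, log axis) against the log2 ratio of soft with A83-01 over soft without; dotted lines mark 2-fold. Lrrc15, Col11a1, Fbln2 and Plod2 lie far below the lower line and Col1a1 just below it at -1.16, Gpnmb and Efemp1 above the upper one, and Cdh5 near 0.

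Of the 6 genes that fell over both matrices, 3 that encode collagens or their receptor are described here. Col11a1, whose product forms thin collagen fibrils, stood at 8.10 CPM without and 0.298 CPM with A83-01, 22.8-fold lower (14.5 to 57.2), and its additive log2 change over both matrices was -4.51, SE 0.195, adjusted p = 0.0337. Itga11, the alpha chain of a fibroblast integrin that binds fibrillar collagen, stood at 81.1 CPM without and 7.67 CPM with A83-01, 10.5-fold lower (9.29 to 12.1), with an additive log2 change of -3.56, SE 0.178, adjusted p = 0.0365. Col8a2, a short-chain network-forming collagen, stood at 6.45 CPM without and 0.537 CPM with A83-01, 10.9-fold lower (7.42 to 20.7), with -3.58, SE 0.209, adjusted p = 0.0385 in the additive test. These p-values are edgeR's quasi-likelihood values with Benjamini-Hochberg adjustment. All 3 genes were lower with the inhibitor on soft and on stiff matrix, which their selection by this test favours.

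The 15 genes with a symbol furthest below 1 by the nearer bound of the interval were led by Lrrc15, a leucine-rich repeat membrane protein known as a marker of TGF-beta-activated fibroblasts. It stood at 17.9 CPM without and 0.686 CPM with A83-01, 24.1-fold lower (17.2 to 41.5). Besides Lrrc15 and the 3 genes above, 4 of the 15 encode secreted matrix proteins. The fibulin gene Fbln2 stood at 143 CPM without and 9.79 CPM with A83-01 (14.5-fold lower, 13.1 to 16.4), and the microfibril gene Fbn2, fibrillin-2, at 8.96 CPM without and 0.597 CPM with A83-01 (13.7-fold lower, 9.55 to 24.9). Tnn, tenascin-W, stood at 13.1 CPM without and 1.13 CPM with A83-01 (11.1-fold lower, 8.31 to 16.6) and Podnl1, a small leucine-rich repeat protein, at 10.7 CPM without and 1.31 CPM with A83-01 (7.83-fold lower, 5.94 to 11.4). Further ones were Fibin (19.7-fold lower, 13.0 to 42.9), the Wnt pathway regulator Dact1 (7.42-fold lower, 5.92 to 9.91), the potassium channel gene Kcnk2 (7.45-fold lower, 5.60 to 11), the receptor phosphatase Ptprv (5.90-fold lower, 5.08 to 7.01) and Cfap53. Cfap53 had 55 counts in soft and 0 with A83-01, at least 18.4-fold lower against the floor of 3 counts.

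Fibrillar collagen and crosslinking genes were lower with A83-01. Of 25 compared, 10 were past 2-fold in that direction and 0 in the other, 19 lay below 0 on the log2 scale and 6 above, and the median log2 ratio was -0.52 beside -0.00142 over all genes. The quasi-likelihood test called 1 of them lower over both matrices, Col11a1, and DESeq2 called 13 lower and 1 higher. Col1a1 stood at 39252 CPM without and 17577 CPM with A83-01, 2.23-fold lower (2.23 to 2.24), and Col3a1, its partner in most soft tissue fibrils, at 15996 CPM without and 7047 CPM with A83-01, 2.27-fold lower (2.26 to 2.28). Their many counts make these intervals narrow, which says nothing of the spread between cultures. Chains of collagen V, which starts and limits fibrils, were lower by like amounts. Col5a1 stood at 2041 CPM without and 927 CPM with A83-01 (2.20-fold lower, 2.17 to 2.23), Col5a2 at 1998 CPM without and 1101 CPM with A83-01 (1.81-fold lower, 1.79 to 1.84) and Col5a3 at 1886 CPM without and 933 CPM with A83-01 (2.02-fold lower, 1.99 to 2.05). Col12a1, which lies on the fibril surface, was 2.42-fold lower (2.39 to 2.44) and Col27a1 2.49-fold lower (2.36 to 2.63).

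Among the enzymes, Plod2, the lysyl hydroxylase that prepares collagen telopeptides for stable crosslinks, stood at 113 CPM without and 21.5 CPM with A83-01, 5.21-fold lower (4.82 to 5.66). Its relative Plod1, which hydroxylates the helix, stood at 794 CPM without and 841 CPM with A83-01, 1.06-fold higher (1.04 to 1.08). Lox, lysyl oxidase, which forms the crosslinks outside the cell, stood at 754 CPM without and 373 CPM with A83-01, 2.02-fold lower (1.98 to 2.06), whereas Loxl1 was 1.01-fold higher (0.985 to 1.03), Loxl2 1.38-fold lower (1.34 to 1.43), Loxl3 1.25-fold lower (1.16 to 1.35) and Loxl4 1.06-fold higher (0.956 to 1.17). Among prolyl hydroxylase subunits P4ha3 was 2.27-fold lower (2.14 to 2.42), P4ha2 1.28-fold lower (1.24 to 1.32) and P4ha1 1.16-fold lower (1.13 to 1.19). The collagen chaperone gene Serpinh1 stood at 3326 CPM without and 2312 CPM with A83-01, 1.44-fold lower (1.43 to 1.45). The members highest with A83-01 were Col14a1, a fibril-associated collagen (1.69-fold higher, 1.63 to 1.76), and the procollagen protease Adamts2 (1.37-fold higher, 1.34 to 1.41). Col1a2 and Col6a3 were not analysed here.

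Contractile and myofibroblast genes were mostly lower, and unevenly so. Of 19 compared, 4 were at least 2-fold lower and 0 higher, 17 lay below 0, and the median was -0.50. The quasi-likelihood test called 0 of them over both matrices (9 lower and 1 higher at unadjusted p, 6 lower and 0 higher by DESeq2). Acta2, the smooth muscle actin by which myofibroblasts are recognised, stood at 271 CPM without and 88.9 CPM with A83-01, 3.05-fold lower (2.92 to 3.18). The actin-binding Tagln stood at 130.0 CPM without and 38.3 CPM with A83-01, 3.39-fold lower (3.19 to 3.61), and calponin, Cnn1, at 7.47 CPM without and 1.28 CPM with A83-01, 5.61-fold lower (4.20 to 8.24). Itga8, the integrin chain of smooth muscle that helps activate latent TGF-beta, was 2.29-fold lower (1.99 to 2.67). Tropomyosin Tpm2 was 1.86-fold lower (1.74 to 2.0), Tpm1 1.64-fold lower (1.58 to 1.69) and the myosin light chain gene Myl9 1.79-fold lower (1.67 to 1.92). Myh11 and Des, markers of differentiated muscle cells, differed little. Myh11, smooth muscle myosin heavy chain, stood at 17.0 CPM without and 17.7 CPM with A83-01, 1.04-fold higher (0.926 to 1.17), and desmin, Des, at 96.7 CPM without and 96.6 CPM with A83-01, 1.00-fold lower (0.953 to 1.05). Srf, the transcription factor of this gene programme, was 1.11-fold lower (1.05 to 1.16), and its coactivator gene Myocd was under 1 CPM in both soft libraries.

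TGF-beta targets and feedback genes gave the lowest median among the lists of signalling genes. Of 21, 5 were at least 2-fold lower, 0 higher and 18 below 0, with a median of -0.61. None passed the quasi-likelihood test over both matrices (11 lower and 0 higher at unadjusted p), and DESeq2 called 6 lower. Pmepa1, a membrane protein that binds SMAD2 and SMAD3 and dampens the pathway, stood at 162 CPM without and 36.7 CPM with A83-01, 4.42-fold lower (4.16 to 4.71). Ctgf, connective tissue growth factor, stood at 55.4 CPM without and 14.9 CPM with A83-01, 3.71-fold lower (3.37 to 4.11). Ltbp2, a microfibril-bound protein of the latent TGF-beta binding family, stood at 237 CPM without and 96.1 CPM with A83-01, 2.47-fold lower (2.37 to 2.57). The profibrotic cytokine gene Il11 was 2.65-fold lower (2.04 to 3.59) and Tgfbi 2.06-fold lower (1.87 to 2.29). The inhibitory SMAD gene Smad7 stood at 16.4 CPM without and 10.9 CPM with A83-01, 1.51-fold lower (1.32 to 1.73), short of 2-fold, as were the SMAD corepressor genes Skil (1.74-fold lower, 1.54 to 1.97) and Ski (1.92-fold lower, 1.77 to 2.08).

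Promoters are shown for 2 TGF-beta targets that were lower, Ctgf and Acta2, for the gene furthest below, Lrrc15, and for a gene among the furthest above, Efemp1, described further on. Each is the 250 bases before the RefSeq start of the gene in rat assembly GRCr8, read along the gene's strand. In capitals are the SMAD box CAGAC, the TEAD motif GGAATG and the AP-1 motif TGANTCA on either strand. The regions are chr1:22624615-22624864 (minus strand, listed there as Ccn2), chr1:241172504-241172753 (minus), chr11:83974458-83974707 (plus) and chr14:106811614-106811863 (plus).
Ctgf: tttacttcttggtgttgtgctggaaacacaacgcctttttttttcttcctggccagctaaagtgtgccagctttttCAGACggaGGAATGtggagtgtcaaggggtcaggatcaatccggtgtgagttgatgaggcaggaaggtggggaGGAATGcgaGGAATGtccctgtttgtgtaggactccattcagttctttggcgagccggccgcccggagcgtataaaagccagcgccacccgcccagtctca
Acta2: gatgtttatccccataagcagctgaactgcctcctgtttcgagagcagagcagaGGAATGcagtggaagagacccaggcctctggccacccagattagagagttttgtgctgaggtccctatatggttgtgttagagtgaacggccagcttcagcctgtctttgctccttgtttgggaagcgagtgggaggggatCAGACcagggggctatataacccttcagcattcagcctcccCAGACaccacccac
Lrrc15: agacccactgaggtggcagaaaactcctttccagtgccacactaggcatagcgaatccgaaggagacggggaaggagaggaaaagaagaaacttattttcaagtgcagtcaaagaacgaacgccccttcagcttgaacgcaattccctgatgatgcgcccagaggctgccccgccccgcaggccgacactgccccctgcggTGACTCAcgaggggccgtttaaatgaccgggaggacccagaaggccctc
Efemp1: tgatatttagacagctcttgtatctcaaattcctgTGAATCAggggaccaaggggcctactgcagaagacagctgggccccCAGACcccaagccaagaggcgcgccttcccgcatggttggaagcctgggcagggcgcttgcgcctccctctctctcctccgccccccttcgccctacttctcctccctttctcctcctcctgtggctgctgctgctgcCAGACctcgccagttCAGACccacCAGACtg
Ctgf has 3 TEAD motifs and 1 SMAD box, Acta2 1 and 2, and Lrrc15 1 AP-1 motif. Efemp1, which was higher with A83-01, has 4 SMAD boxes and 1 AP-1 motif, so the SMAD box letters occur in promoters of genes on both sides of the response. Among the 300-base windows that also take in 50 bases after the start, matched for 9589 compared genes, the SMAD box stood in 48.3%, in 59.8% of the 194 at least 2-fold lower and in 43.8% of the 169 at least 2-fold higher, and in 50.0% of all 27457 RefSeq windows. AP-1 stood in 4.82%, 6.19% and 11.2% (7.33% of all), and TEAD in 10.9%, 14.9% and 13.0% (13.9% of all). In all, 11 motifs were searched, on both strands except for the TATA box, which was searched along the gene's strand only. The others were the SMAD palindrome GTCTAGAC, which holds no SMAD box as spelled above, the GC-rich SMAD motif GGCGCC, the TATA box TATAAA, the amino acid response element TGATGNAA and, by name, the CArG box, the retinoic acid element, the NF-kB site and the interferon element. The GC-rich SMAD motif stood in 22.1% of compared, 22.2% of lower and 12.4% of higher genes (11.8% of all). The interferon element stood in 2.93% of compared, 1.03% of lower and 8.88% of higher genes (3.77% of all). These shares are descriptions of letters in a window, not of binding.

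**Figure D2:**
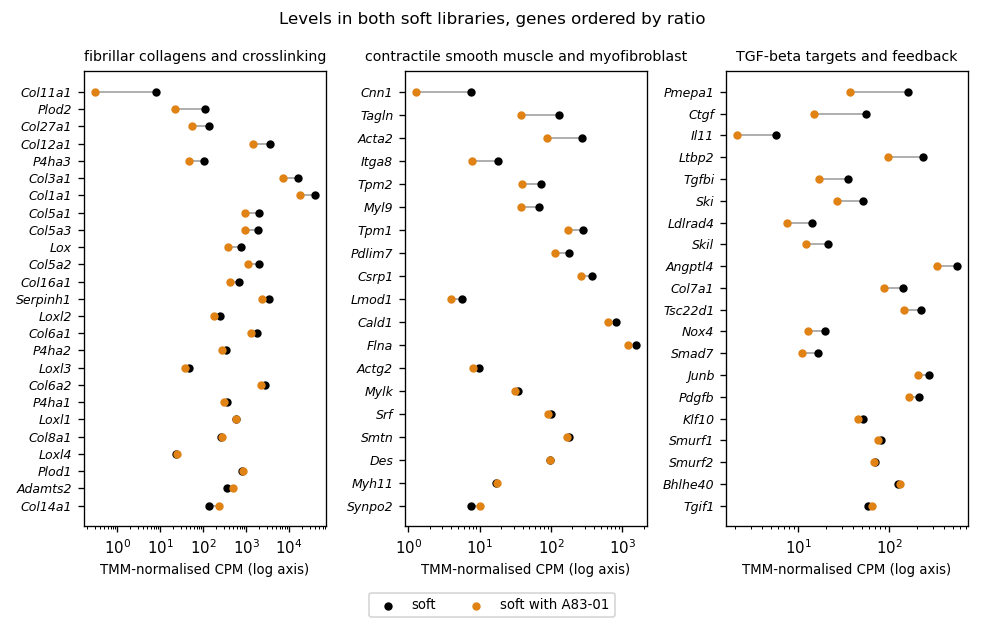
Levels in TMM-normalised CPM (log axis) in soft (black) and soft with A83-01 (orange) for genes of 3 lists, ordered by ratio, 1 library per point. Col11a1, Plod2, Cnn1, Tagln, Pmepa1 and Ctgf show the widest gaps, and Myh11, Des, Loxl1 and Smurf2 almost none.

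The pathway's own components lay on both sides of equality. Of 23 TGF-beta and activin ligands, receptors and SMADs, 1 was at least 2-fold higher and 0 lower, with a median of -0.08, while 6 were past 1.5-fold in either direction, beside 11.8% of all genes. Over both matrices 0 passed the quasi-likelihood test (5 higher and 5 lower at unadjusted p), and DESeq2 called 3 higher and 2 lower. The one past 2-fold was Ltbp1, which tethers latent TGF-beta in the matrix, at 25.6 CPM without and 81.5 CPM with A83-01, 3.18-fold higher (2.95 to 3.44). Among ligands, Tgfb1 stood at 391 CPM without and 303 CPM with A83-01 (1.29-fold lower, 1.26 to 1.33), Tgfb2 was 1.17-fold lower (1.05 to 1.31), Tgfb3 1.30-fold lower (1.12 to 1.51) and the activin chain gene Inhba 1.26-fold lower (1.14 to 1.40). Tgfbr1, the receptor kinase that A83-01 blocks, stood at 21.5 CPM without and 20.3 CPM with A83-01, a ratio whose interval includes 1 (1.06-fold lower, 0.949 to 1.17). The type II receptor gene Tgfbr2 stood at 196 CPM without and 377 CPM with A83-01, 1.92-fold higher (1.87 to 1.98). The signal carriers Smad2 (1.03-fold lower, 0.946 to 1.12) and Smad3 (1.00-fold higher, 0.948 to 1.06) were level. The activin antagonist genes follistatin, Fst (1.67-fold higher, 1.40 to 2.01), and Fstl3 (1.75-fold lower, 1.45 to 2.14) went in opposite directions, and the follistatin-like Fstl1 was 1.64-fold lower (1.61 to 1.68) and the coreceptor gene Tgfbr3 1.5-fold higher (1.46 to 1.55).

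BMP genes divided. Of 23, 1 was at least 2-fold higher and 4 lower, with a median of -0.04. The quasi-likelihood test called 0 of them over both matrices (6 higher and 6 lower at unadjusted p). The 4 ID genes, which are direct BMP targets, were all higher, none past 2-fold, with Id1 at 25.9 CPM without and 40.9 CPM with A83-01 (1.58-fold higher, 1.45 to 1.72), Id3 at 206 CPM without and 306 CPM with A83-01 (1.48-fold higher, 1.44 to 1.53), Id2 2.0-fold higher (1.80 to 2.24) and Id4 1.56-fold higher (1.32 to 1.87). Id2 sat on the 2-fold line, with a log2 ratio of 1.00, and was past it under 5 of 11 other settings. In the FPKM table its log2 ratio was 1.36, so the size of its difference depends on which deposited table is read. The secreted BMP antagonist genes that were past 2-fold lower were Grem1 at 48.1 CPM without and 16.5 CPM with A83-01 (2.91-fold lower, 2.65 to 3.22), Bmper (2.55-fold lower, 2.02 to 3.34) and Chrd (2.80-fold lower, 1.82 to 4.98), joined by the type I receptor gene Bmpr1b (7.37-fold lower, 4.40 to 19.9). The antagonist gene Chrdl1 was 1.79-fold higher (1.69 to 1.90), and also higher was the ligand gene Gdf10, at 13.7 CPM without and 31.6 CPM with A83-01, 2.31-fold higher (2.07 to 2.59).

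Elastic fibre genes included both ends of the response. Of 12, 3 were at least 2-fold lower and 2 higher, with a median of -0.29. Fbln2 and Fbn2, above, and Mfap2, a microfibril glycoprotein (5.56-fold lower, 3.86 to 9.45), were the lower ones. Efemp1, fibulin-3, a secreted glycoprotein of basement membranes and elastic tissue, stood at 2.93 CPM without and 41.3 CPM with A83-01, 13.9-fold higher (11.5 to 17.5), and Emilin2 was 2.05-fold higher (1.91 to 2.21). Fbn1, the main fibrillin of adult tissue, stood at 362 CPM without and 554 CPM with A83-01, 1.53-fold higher (1.49 to 1.56), against the direction of Fbn2, and Fbln5 was 1.73-fold lower (1.61 to 1.86). Elastin itself, Eln, was sparsely counted, with 36 counts in soft and 68 with A83-01 (1.84-fold higher, 1.24 to 2.91).

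Proteoglycan and matricellular genes also split by member. Of 8 small leucine-rich proteoglycans, 2 were at least 2-fold lower and 0 higher (median -0.51). Decorin, Dcn, which coats collagen fibrils and binds TGF-beta, stood at 11520.2 CPM without and 21954 CPM with A83-01, 1.91-fold higher (1.90 to 1.91), while its close relative biglycan, Bgn, stood at 6495 CPM without and 3468 CPM with A83-01, 1.87-fold lower (1.86 to 1.89). Asporin, Aspn, was 2.34-fold lower (2.07 to 2.67) and fibromodulin, Fmod, 3.83-fold lower (2.37 to 7.95). Of 19 matricellular and provisional matrix genes, 2 were at least 2-fold lower and 1 higher (median -0.43). The lower ones were Wisp1 (2.98-fold lower, 2.66 to 3.35) and Cthrc1 (2.48-fold lower, 2.05 to 3.08), and the higher one Wisp2 (3.52-fold higher, 2.96 to 4.28), like Wisp1 a CCN family gene. Periostin, Postn, stood at 526 CPM without and 293 CPM with A83-01 (1.80-fold lower, 1.75 to 1.84), tenascin-C, Tnc, was 1.76-fold lower (1.74 to 1.78) and fibronectin, Fn1, at 4273 CPM without and 6412 CPM with A83-01, was 1.5-fold higher (1.49 to 1.51). None of the members of these 3 lists passed the quasi-likelihood test over both matrices, where in that order 5, 3 and 9 were lower and 2, 3 and 2 higher at unadjusted p. DESeq2 called 2, 3 and 4 lower and 1, 0 and 1 higher.

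Of 16 basement membrane genes, 0 were past 2-fold in either direction (median 0.03). Col4a1, a chain of the network collagen of all basement membranes, stood at 9965 CPM without and 8379 CPM with A83-01 (1.19-fold lower, 1.18 to 1.2), and the laminin chain gene Lama2 (1.89-fold higher, 1.76 to 2.03) was the furthest above. Of 23 proteases and inhibitors, 3 were at least 2-fold lower, Mmp23 (2.66-fold lower, 2.38 to 3.00), the serpin gene Serpine2 (2.54-fold lower, 2.42 to 2.68) and the myofibroblast-associated Adam12 (2.05-fold lower, 1.98 to 2.11), and 0 higher. The collagenase activator Mmp14 stood at 4740.1 CPM without and 4342 CPM with A83-01 (1.09-fold lower, 1.08 to 1.10). Among the proteases and inhibitors the quasi-likelihood test called 0 over both matrices. At unadjusted p 1 was higher and 8 lower, and DESeq2 called 1 higher and 6 lower. Of 19 focal adhesion genes, Itga11 was lower and the laminin receptor chain gene Itga3, at 11.4 CPM without and 37.3 CPM with A83-01, was 3.27-fold higher (2.93 to 3.70). Of 19 YAP and TAZ targets, 1 was at least 2-fold lower, Ctgf, and Cyr61, at 489 CPM without and 349 CPM with A83-01, was 1.40-fold lower (1.37 to 1.44). Among 10 mesenchymal transition genes 1 was past 2-fold, the cadherin gene Cdh11, at 112 CPM without and 37.5 CPM with A83-01, 2.98-fold lower (2.79 to 3.18). Snai1 was 1.70-fold lower (1.65 to 1.75), Twist1 1.29-fold higher (1.23 to 1.36) and Zeb2 1.29-fold higher (1.23 to 1.35).

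The 15 genes with a symbol furthest above 1 by the nearer bound included Efemp1, described above. Clec3b, tetranectin, a marker of resting adventitial fibroblasts, stood at 4.09 CPM without and 39.0 CPM with A83-01, 9.41-fold higher (7.99 to 11.4). Ppl, periplakin, which links intermediate filaments to junctions, stood at 12.6 CPM without and 87.0 CPM with A83-01, 6.87-fold higher (6.23 to 7.66). Crabp1, which binds retinoic acid in the cytosol, stood at 3.17 CPM without and 24.9 CPM with A83-01 (7.73-fold higher, 6.42 to 9.71), and Il17re, a receptor chain for interleukin 17C, at 3.82 CPM without and 29.8 CPM with A83-01 (7.69-fold higher, 6.48 to 9.45). The membrane protein gene Elfn2 was 9.14-fold higher (7.42 to 11.9) and Sncg 5.64-fold higher (4.52 to 7.43). Mlana, first known from melanocytes, had 5 counts in soft and 159 with A83-01, 23.0-fold higher (13.3 to 99.2), and the aldehyde dehydrogenase gene Aldh3a1 had 13 and 244, 16.4-fold higher (10.8 to 35.7). The rest of the 15 had few counts in the soft library. They were the aldo-keto reductase Akr1cl (8.10-fold higher, 5.72 to 13.7), a member of a family of close copies whose count is uncertain, the secreted phospholipase Pla2g2a (7.36-fold higher, 5.53 to 10.9), Wfdc18 (12.0-fold higher, 6.29 to 96.4), the sodium channel subunit gene Scn4b (10.2-fold higher, 5.46 to 55.9), P-selectin, Selp (8.62-fold higher, 4.87 to 31.5), and Clca4l. Clca4l had 0 counts in soft and 39 with A83-01, at least 13.0-fold higher. None of the 15 passed the quasi-likelihood test over both matrices, the lowest adjusted p being that of Mlana (0.0580). DESeq2 called 12 of them, and 1.61% of all genes higher. Both tests include the soft libraries by which the 15 were chosen, so neither is a separate check.

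Inflammatory genes lay on both sides of equality. Of 26 cytokine, chemokine and adhesion genes, 6 were past 2-fold higher and 1 past 2-fold lower (median 0.15). Among the higher ones, Il33, a nuclear alarmin, stood at 51.1 CPM without and 115 CPM with A83-01 (2.26-fold higher, 2.13 to 2.39) and Vcam1, which binds leukocyte integrins, at 21.9 CPM without and 48.1 CPM with A83-01 (2.19-fold higher, 2.01 to 2.40). The other 4, Selp, E-selectin Sele (4.00-fold higher, 2.59 to 7.52), Cxcl10 (2.51-fold higher, 1.81 to 3.72) and Ccl5 (2.20-fold higher, 1.31 to 4.30), were each under 4 CPM. Il1a, at 32.5 CPM without and 15.5 CPM with A83-01, was 2.09-fold lower (1.88 to 2.33). The widely studied members Il6, Cxcl1 and Ccl2 differed little. Il6 stood at 43.6 CPM without and 35.3 CPM with A83-01 (1.23-fold lower, 1.14 to 1.33), Cxcl1 at 91.2 CPM without and 109 CPM with A83-01 (1.19-fold higher, 1.14 to 1.25) and Ccl2 at 446 CPM without and 484 CPM with A83-01 (1.09-fold higher, 1.06 to 1.11). Of 20 complement and innate defence genes, 3 were higher and 3 lower. Complement component C6 stood at 39.7 CPM without and 102 CPM with A83-01 (2.58-fold higher, 2.42 to 2.75), the protease gene Cfd was 3.35-fold higher (2.81 to 4.11), and Pla2g2a is given above. The regulator gene Cfi (3.11-fold lower, 2.57 to 3.88) and the lipopolysaccharide-binding Lbp (2.68-fold lower, 1.98 to 3.86) were lower. C3, the hub of the cascade, stood at 696 CPM without and 387 CPM with A83-01, 1.80-fold lower (1.76 to 1.84). Of 17 interferon response genes, 3 were higher, Usp18 (2.77-fold higher, 2.19 to 3.62), Gbp5 (2.15-fold higher, 1.72 to 2.76) and Oas1a (2.60-fold higher, 1.48 to 5.83), all under 8 CPM. Over both matrices the quasi-likelihood test called 0 of the inflammatory, complement and interferon genes. At unadjusted p 3, 4 and 5 were higher and 3, 3 and 0 lower, in that order.

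Most endothelial genes were close to equality. Of 26 endothelial markers 1 was past 2-fold lower and 0 past 2-fold higher, with a median log2 ratio of 0.03. Over both matrices the quasi-likelihood test called 0 of them (6 higher and 1 lower at unadjusted p, 1 higher and 1 lower by DESeq2). The junction gene Cdh5, VE-cadherin, measured 869.6 CPM without and 886 CPM with A83-01, 1.02-fold higher (1.00 to 1.04), and the VEGF receptor gene Kdr at 210.2 CPM without and 248 CPM with A83-01, 1.18-fold higher (1.14 to 1.22). The sole member past 2-fold was Vwf, von Willebrand factor, which endothelial cells store and release, at 126 CPM without and 48.0 CPM with A83-01, 2.61-fold lower (2.47 to 2.77). Among 28 angiogenic and Notch genes 3 were lower, the tip cell gene Esm1 at 71.2 CPM without and 33.4 CPM with A83-01 (2.13-fold lower, 1.98 to 2.29), the Notch target Heyl at 106 CPM without and 46.0 CPM with A83-01 (2.30-fold lower, 2.16 to 2.44) and the ligand gene Dll1 (2.19-fold lower, 1.78 to 2.75), and 1 was higher, the apelin receptor gene Aplnr at 2.96 CPM without and 12.5 CPM with A83-01 (4.16-fold higher, 3.39 to 5.32). Vegfa was 1.19-fold lower (1.16 to 1.23).

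Pericyte and fibroblast markers were measured as well, since the matrix and contractile genes above are products of such cells. Of 15 pericyte and mural markers, 1 was at least 2-fold higher, the aminopeptidase gene Anpep at 1414 CPM without and 3507 CPM with A83-01 (2.48-fold higher, 2.45 to 2.51), and 0 lower. Pdgfrb, the receptor through which pericytes are recruited, stood at 1239 CPM without and 881 CPM with A83-01 (1.41-fold lower, 1.39 to 1.43), Cspg4, which encodes NG2, at 76.5 CPM without and 54.9 CPM with A83-01 (1.39-fold lower, 1.31 to 1.48) and Rgs5 at 21.9 CPM without and 23.2 CPM with A83-01 (1.06-fold higher, 0.957 to 1.17). Summed over the 7 defining mural markers, the level was 2516 CPM in soft and 1971 CPM with A83-01, and over 7 endothelial markers 1614 and 1640.0 CPM. Of 18 fibroblast markers, 3 were higher, Clec3b, Scara5 (4.88-fold higher, 3.34 to 8.42) and S100a4, at 154 CPM without and 376 CPM with A83-01 (2.44-fold higher, 2.36 to 2.52), and 0 lower, while Pdgfra stood at 1054 CPM without and 931 CPM with A83-01 (1.13-fold lower, 1.12 to 1.15). The 5 defining fibroblast markers summed to 15080.4 and 25645 CPM, mostly counts of Dcn, and without Dcn the other 4 summed to 3560.2 and 3691 CPM. Both libraries thus held endothelial, mural and fibroblast transcripts. With A83-01 the sum of the 7 mural markers was lower, that of the 5 fibroblast markers higher, and the endothelial sum close to equal. Without Dcn the fibroblast sum was close to equal too. Pdgfrb made up 1239 and 881 CPM of the 7-marker sums. The longer mural list of 18 went the other way, at 4324 CPM in soft and 6090 CPM with A83-01. Of these sums Anpep made up 1414 and 3507 CPM. The median log2 ratio of the 15 compared members was 0.08. Over both matrices the quasi-likelihood test called 0 of the mural and fibroblast markers. At unadjusted p 4 and 7 were higher and 1 and 2 lower, in that order. DESeq2 called 2 and 6 higher and 0 and 1 lower. The longer fibroblast list summed to 16000.5 CPM in soft and 26896 CPM with A83-01, with a median log2 ratio of 0.095 over 18 compared members. The part of these marker sums in the matrix and contractile differences was not tested.

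**Figure D3:**
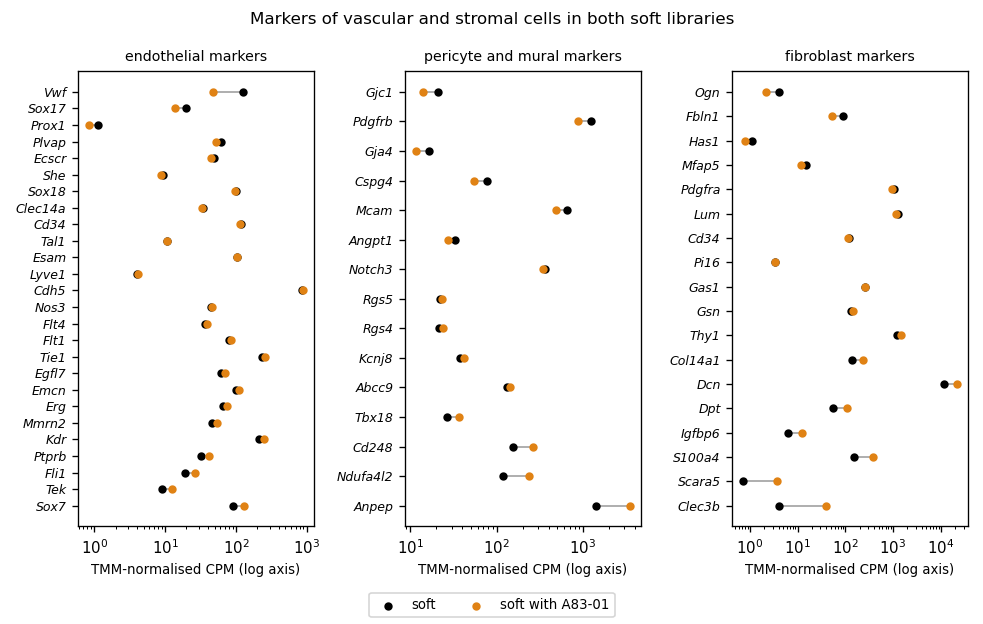
Levels in TMM-normalised CPM (log axis) in soft (black) and soft with A83-01 (orange) for endothelial, pericyte and mural, and fibroblast markers, ordered by ratio, 1 library per point. Among endothelial genes Vwf alone is past 2-fold, and Anpep, S100a4, Scara5 and Clec3b stand apart among the others.

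Other cell types were thinly represented. The 6 defining leukocyte and macrophage markers summed to 84.2 CPM in soft and 127 CPM with A83-01, of which Cd68 measured 40.0 CPM without and 68.0 CPM with A83-01 (1.70-fold higher, 1.59 to 1.82) and Ptprc at 2.90 CPM without and 3.76 CPM with A83-01 (1.29-fold higher, 0.988 to 1.71), and Aif1 was under 1 CPM in both. In the longer list of 12 compared, 10 were above 0 and 0 past 2-fold. The 3 lymphatic markers Prox1, Lyve1 and Flt4 summed to 41.6 and 43.6 CPM, and the 4 adipocyte markers Adipoq, Plin1, Fabp4 and Pparg to 23.3 and 33.4 CPM. Of 9 adipocyte markers 2 were at least 2-fold higher, Cfd and the lipid droplet gene Plin1 (2.13-fold higher, 1.63 to 2.90). Of 7 Schwann cell and nerve markers all were below 0 and 1 was at least 2-fold lower, the adhesion molecule gene Ncam1 at 42.9 CPM without and 19.3 CPM with A83-01 (2.22-fold lower, 2.02 to 2.44). The keratinocyte genes Krt5, Krt14 and Cdh1 had 0 counts in both libraries, and Myod1, Myog and Ckm of skeletal muscle were all under 1 CPM. In the longer muscle and keratinocyte lists 2 and 1 genes were compared and 0 were past 2-fold.

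The list of serine, glycine and proline synthesis, of which glycine and proline make up much of collagen, lay below equality throughout. It also holds Asns, for asparagine synthesis, and regulators of the amino acid response such as Trib3. Of 17, 17 lay below 0, 3 were at least 2-fold lower, and the median was -0.42. Phgdh, the first enzyme of serine synthesis, stood at 23.8 CPM without and 7.70 CPM with A83-01, 3.08-fold lower (2.69 to 3.58), and Psat1, the second, at 51.7 CPM without and 26.7 CPM with A83-01, 1.93-fold lower (1.78 to 2.10). Pycr1, which makes proline, was 2.19-fold lower (1.89 to 2.58) and Trib3, a target of the amino acid response, 2.65-fold lower (2.36 to 3.01), while Atf4, the transcription factor of that response, was 1.11-fold lower (1.08 to 1.14). The quasi-likelihood test called 0 of them over both matrices (10 lower at unadjusted p, 6 lower by DESeq2).

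Cell division and metabolism showed small shifts. Of 23 mitosis genes 21 lay above 0 and 0 were past 2-fold (median 0.14), with the proliferation marker Mki67 at 85.7 CPM without and 133 CPM with A83-01 (1.55-fold higher, 1.48 to 1.63). The quasi-likelihood test called 0 mitosis genes over both matrices (8 higher and 0 lower at unadjusted p, 2 higher and 0 lower by DESeq2). The 20 DNA replication genes had a median of 0.18 and 0 past 2-fold, and the 12 cyclin-dependent kinase inhibitors and D cyclins 0.09 and 0, with Ccnd1 at 38.0 CPM without and 66.9 CPM with A83-01 (1.76-fold higher, 1.64 to 1.89). Of 18 cholesterol synthesis genes 17 lay above 0 (median 0.27), Insig1 the furthest (1.93-fold higher, 1.82 to 2.05). Hypoxia and glycolysis genes, 21 in all, had a median of 0.14 and 1 past 2-fold, the vasodilator peptide gene Adm at 121 CPM without and 250.4 CPM with A83-01 (2.07-fold higher, 1.99 to 2.15). Of 18 immediate early genes 1 was higher, Klf4 (2.27-fold higher, 2.02 to 2.57), and of 11 heat shock genes 1 lower, Hspa1b (2.04-fold lower, 1.70 to 2.49), whose near-identical copy Hspa1a makes its count uncertain.

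Growth factor, Wnt and skeletal regulator genes completed the lists. Of 26 growth factor genes 3 were higher, Fgf10 at 13.1 CPM without and 29.9 CPM with A83-01 (2.28-fold higher, 2.04 to 2.56), Igf1 at 4.54 CPM without and 10.7 CPM with A83-01 (2.33-fold higher, 1.94 to 2.86) and Igf2 (3.94-fold higher, 2.47 to 7.95), and 1 lower, Fgf18 (3.90-fold lower, 2.12 to 11.5). Of 16 Wnt genes, Wnt4 at 25.9 CPM without and 95.9 CPM with A83-01 (3.69-fold higher, 3.43 to 3.99) and the modulator Sfrp2 at 92.6 CPM without and 203 CPM with A83-01 (2.19-fold higher, 2.10 to 2.29) were higher and 4 were lower, Sfrp1 at 291 CPM without and 136 CPM with A83-01 (2.15-fold lower, 2.07 to 2.23) and the sparsely counted Sfrp4 (5.00-fold lower, 2.74 to 16.2), Frzb (2.17-fold lower, 1.35 to 3.95) and Wnt9a (2.12-fold lower, 1.2 to 4.48). Of 9 skeletal regulators 3 were lower, the bone factor Runx2 at 40.5 CPM without and 19.2 CPM with A83-01 (2.11-fold lower, 1.92 to 2.32), Fgf18, and Sox9, the cartilage factor (2.18-fold lower, 1.47 to 3.53), with 72 counts in soft. Over both matrices the quasi-likelihood test called 0 of the growth factor, Wnt and skeletal genes. At unadjusted p 5, 2 and 0 were higher and 4, 4 and 2 lower, in that order. Over the 36 lists, among those with at least 5 compared members, the share past 2-fold lower ranged from 0 to 40%. Its highest value was in fibrillar collagen genes, beside 2.33% of all genes. The share past 2-fold higher ranged from 0 to 23.1%, the latter in inflammatory genes, beside 2.09% of all genes.

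**Figure D4:**
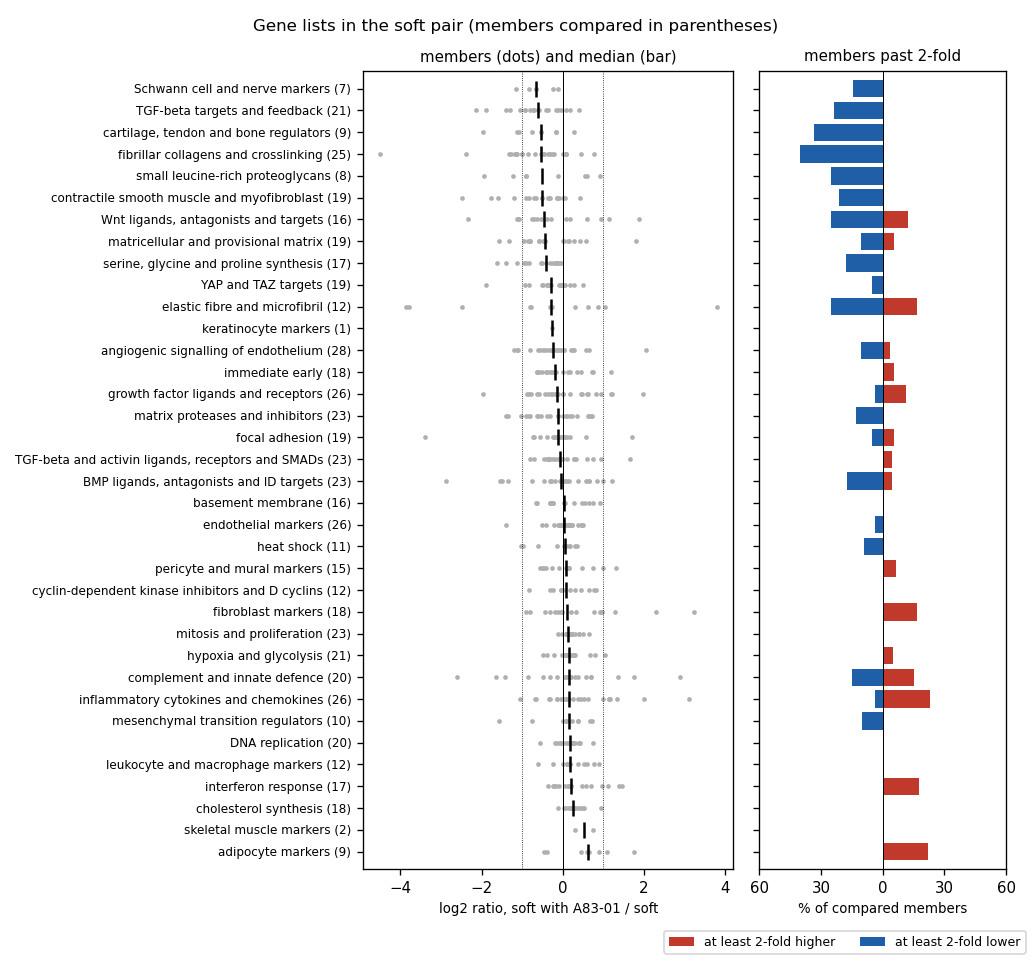
For each of the 36 lists, the left panel gives the log2 ratio of soft with A83-01 over soft for every compared member (dots) and the median (bar), and the right panel the percentage of compared members at least 2-fold higher (red) or lower (blue). Among lists with at least 5 compared members, fibrillar collagen genes have the largest lower share and inflammatory genes the largest higher share. No mitosis or DNA replication member is past 2-fold.

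The same inhibitor on stiff matrix was measured in 2 other libraries, so the responses share none. Across the 13236 genes, which are not independent replicates, Pearson's r of the log2 ratios was 0.531 and Spearman's rho 0.409, and all 4 libraries share cell source and platform as far as the labels tell. On stiff matrix 941 of these genes (7.11%) were past 2-fold higher and 527 (3.98%) past 2-fold lower. Of the genes higher on soft, 162 were also higher on stiff, 58.5% of the soft list and 17.2% of the stiff list, and of those lower on soft 176 were also lower, 57.1% and 33.4%. With 1 library per group the difference between the responses has no test, and its interval below covers counting error only.

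Several matrix genes were lower on both matrices and further so on stiff. Fbln2 stood at 2096 CPM on stiff without and 17.0 CPM with A83-01, 123-fold lower (114 to 134) there, and Lrrc15 was 141-fold lower (104 to 237) on stiff. Col1a1 stood at 69475 CPM on stiff without and 19079 CPM with A83-01, 3.64-fold lower (3.63 to 3.65); its soft log2 ratio exceeded the stiff one by 0.71 (counting interval 0.70 to 0.71 for soft minus stiff). Lox was 6.01-fold lower (5.77 to 6.27) on stiff and Postn 6.78-fold lower (6.61 to 6.96). The contractile list had a median of -0.50 on soft and -0.45 on stiff, with 1 of its members past 2-fold lower on stiff. Of the 3 members with the largest soft folds, Acta2 stood at 3691 CPM on stiff without and 2428 CPM with A83-01, 1.52-fold lower (1.51 to 1.53), Tagln was 1.86-fold lower (1.84 to 1.89) and Cnn1 3.10-fold lower (2.93 to 3.28), each a smaller fold than on soft. For Acta2 the soft log2 ratio lay below the stiff one by 1.00 (counting interval -1.06 to -0.94 for soft minus stiff). Itga11 (13.1-fold lower, 12.5 to 13.8 on stiff) and Col11a1 (21.1-fold lower, 17.9 to 25.7) had close folds on both. They had been called by the additive test, which favours genes with like responses on both matrices.

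Other genes differed more on soft than on stiff. Kcnk2 stood at 9.50 CPM on stiff without and 5.27 CPM with A83-01 (1.79-fold lower, 1.49 to 2.18) and Selp at 0.206 CPM on stiff without and 0.112 CPM with A83-01 (1.54-fold lower, 0.436 to 8.86). In the other direction, endothelial markers, with a median of 0.03 on soft, had a median of 0.77 on stiff, mitosis genes 1.02 and complement genes 2.21, the last with C3 at 1.14 CPM on stiff without and 8.47 CPM with A83-01, 7.13-fold higher (5.2 to 11). The list of serine, glycine and proline synthesis had a median of -1.09 and fibrillar collagen genes -1.45 on stiff. Of the 585 genes past 2-fold on soft (4.42% of those compared), 503 had the same sign on stiff, and 263 of these a larger ratio there. In 187 the stiff log2 ratio was under 0.5 of the soft one or had the opposite sign. The same counts over all compared genes were not made. Of the 277 higher on soft, 9 were past 2-fold lower on stiff, and of the 308 lower, 17 were past 2-fold higher. Both are smaller shares than over all compared genes on stiff, 3.98% lower and 7.11% higher.

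**Figure D5:**
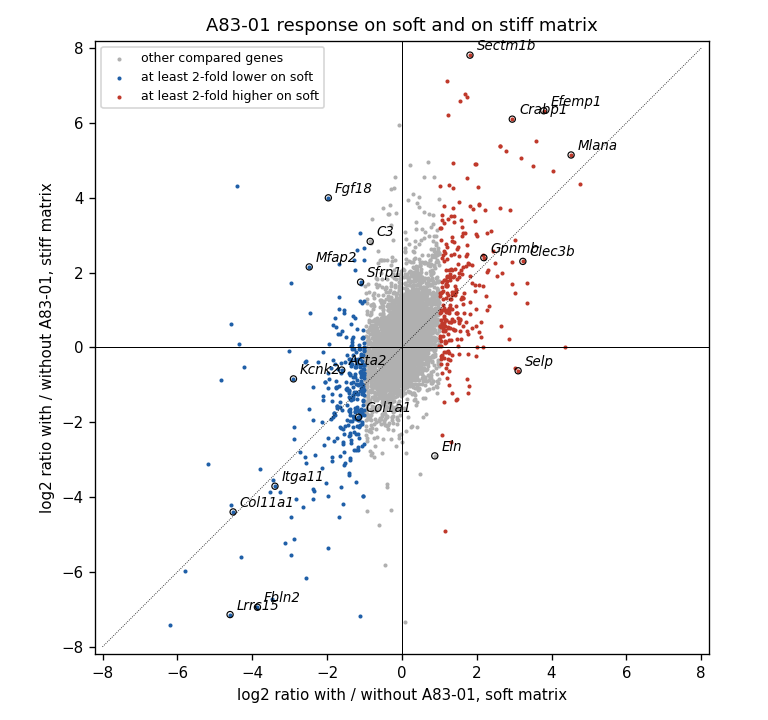
Each point is 1 compared gene, with the log2 ratio of A83-01 over none on soft matrix (horizontal) and on stiff matrix (vertical), 1 library per group; the dotted line marks equal ratios. Col11a1 and Itga11 lie near the line, Fbln2 and Efemp1 further out on the stiff axis, Kcnk2 and Selp within 1 log2 unit of 0 on it, and Mfap2, Fgf18 and Sfrp1 in the upper left.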

How the data were processed

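Total RNA of primary rat microvascular cells was taken with Trizol, its mRNA selected on oligo(dT) beads, primed with random hexamers, amplified and read in pairs of 150 bases on a DNBSEQ-T7 instrument, per the labels' protocols. The authors deposited a table of whole-number read counts per gene and library, and a second of FPKM, counts scaled to length and library size. Per the submitters' processing notes, HISAT2, edgeR and the build Rnor_6.0 were used. Which program counted reads, and over which annotation, was not given in the sources used here. Of the entries, 1563 are assembled transcripts without a gene name.

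Counts were scaled with TMM factors over all 4 libraries (R 4.3.3, edgeR 4.0.16). Ratios carry 95% Clopper-Pearson intervals of the 2 counts. The additive test was edgeR's quasi-likelihood test, with DESeq2 1.42.0 and limma 3.58.1 as alternatives. Both the test and the interval were also run on simulated counts. These had no matrix effect, no response that differs between matrices and the same spread for every gene. They therefore do not show how either fares on the real libraries. Depth was 32271844 to 33416200 counts per library. Genes were named as the 15 furthest from 1 in each direction by the nearer bound, up to 8 per list and direction, and 25 set genes; those further named from a list were chosen after their values were seen. Some genes that these rules name are not reported here. Members and lists were chosen with earlier results of these data known.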

Additional observations from a re-analysis of the deposited data

Results flagged for a closer look

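Among the named genes, 3 were at least 2-fold lower with A83-01 on soft matrix and at least 2-fold higher with it on stiff matrix. Their counting intervals exclude equality in both, and with 1 library per group this difference was not tested. Of all 308 genes lower on soft, 17 were past 2-fold higher on stiff. That is a smaller share than the 7.11% of all 13236 compared genes that were higher on stiff. Mfap2, a microfibril gene, had a log2 ratio of -2.48 on soft, from 148 to 25 counts, and was 4.44-fold higher (2.97 to 7.93) on stiff, from 21 to 122 counts. Sfrp1, a secreted Wnt modulator and the sole one of the 3 above 10 CPM, had -1.10 on soft (291 CPM without and 136 CPM with A83-01) and was 3.36-fold higher (3.15 to 3.59) on stiff (39.9 CPM on stiff without and 134 CPM with A83-01), so that both libraries with A83-01 stood close together. Fgf18, a growth factor of skeletal tissue, had -1.96 on soft, from 37 to 8 counts, and on stiff 0 counts without and 33 with A83-01, at least 8.97-fold higher.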

How the results depend on the processing

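Replicates could not be paired, because each group holds 1 library and there are no replicate numbers. The additive test itself pairs by matrix, comparing with and without A83-01 within each. Leaving out a library leaves either no ratio or no residual degree of freedom. The counts of genes at least 2-fold apart on soft (277 higher, 308 lower) stayed within 1.5 times under the scaling, prior count and FPKM alternatives (254 to 296 higher, 263 to 314 lower). Without an expression minimum they were 506 and 568, at a minimum of 10 CPM 114 and 131, and with the nearer bound at 2-fold 152 and 167. The correlation of the soft with the stiff response was 0.340 without a minimum and 0.597 at 10 CPM; these alternatives change which genes enter. The additive test (0 higher, 6 lower) gave 219 higher and 244 lower with DESeq2, 0 and 3 with limma-voom, 563 and 270 with total counts alone, 10 and 17 without a minimum, 0 and 6 with edgeR's own filter and 0 and 0 without the matrix term (289 and 305 at unadjusted p); the cause was not tested. Of the values of named genes under the soft alternatives, 4255 kept their side of 2-fold, 26 fell short of it and 7 newly reached it. No gene past 2-fold in the main setting changed sign. For genes short of 2-fold, changes of sign were not counted. A gene at 1 CPM rests on about 33.5 counts, so folds near 2 of genes at that level are bounded loosely.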

Other observations

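The following genes belong to lysosomal, pigment-cell, iron, detoxification and retinoid lists. The 5 lists used here were drawn up after their values were seen, and carry no test. Gpnmb, a membrane glycoprotein of lysosomes and melanosomes, stood at 703 CPM without and 3211 CPM with A83-01, 4.57-fold higher (4.50 to 4.63). On stiff matrix it was 5.27-fold higher (5.16 to 5.39). Of 26 lysosomal genes 23 lay above 0 on soft (median 0.30, on stiff 0.12) and 1 was past 2-fold, the protease gene Lgmn at 302 CPM without and 606 CPM with A83-01 (2.01-fold higher, 1.96 to 2.05; 1.02-fold higher, 0.992 to 1.05 on stiff), with cathepsin B, Ctsb, at 1906 CPM without and 3781 CPM with A83-01 (1.98-fold higher, 1.96 to 2.0). Cathepsin K, Ctsk, a collagen-degrading member, was 1.65-fold lower (1.59 to 1.71). Mitf, a transcription factor of melanocytes and lysosomal genes, stood at 28.1 CPM without and 53.7 CPM with A83-01 (1.91-fold higher, 1.76 to 2.07), and Mlana is given above, while the pigment genes Tyr, Slc45a2 and Oca2 had 0 counts in both soft libraries and Pmel was 1.36-fold lower (0.899 to 2.12). The leukocyte and macrophage markers, whose cells are rich in lysosomes, summed to 84.2 CPM without and 127 CPM with A83-01, and their part in these values was not tested.

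Ferritin heavy chain, Fth1, stood at 1697 CPM without and 3457 CPM with A83-01 (2.04-fold higher, 2.02 to 2.06) and the light chain gene Ftl1 at 129.9 CPM without and 237 CPM with A83-01 (1.83-fold higher, 1.76 to 1.90). The metalloreductase genes Steap3 (2.86-fold higher, 2.60 to 3.18) and Steap1 (2.65-fold higher, 2.48 to 2.84) were higher too, and 11 of 12 iron genes lay above 0. The iron list had a median of 0.68 with 3 past 2-fold higher on soft, and 0.47 with 2 on stiff. On stiff matrix Ftl1 was 1.08-fold lower (1.03 to 1.13) and Steap3 1.14-fold lower (1.04 to 1.24). Among 22 detoxifying enzymes 6 were past 2-fold higher and 0 lower on soft (median 0.54), beside 8 and 0 on stiff (median 0.52). The higher ones on soft included the glutathione transferases Mgst1 at 221 CPM without and 590.1 CPM with A83-01 (2.67-fold higher, 2.60 to 2.75) and Gstt3 (4.07-fold higher, 3.58 to 4.70), and the quinone reductase Nqo1 at 54.3 CPM without and 123 CPM with A83-01 (2.26-fold higher, 2.14 to 2.39; 1.09-fold lower, 1.04 to 1.14 on stiff). Of 11 retinoid genes, Crabp1, the retinoic acid-forming Aldh1a3 (3.65-fold higher, 2.98 to 4.61) and the retinoic acid-degrading Cyp26b1 (2.25-fold higher, 1.87 to 2.77) were higher, and Dhrs3, which returns retinal to retinol, was 3.90-fold lower (3.26 to 4.78).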
